A study of Rattus norvegicus with 8 samples.

Results

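Chondroitin sulfate proteoglycans and tenascins were followed through single cells of the rat spinal cord by 9 genes, found by symbol among the 32623 genes of the deposited count tables: Acan (aggrecan), Bcan (brevican), Ncan (neurocan), Vcan (versican), Cspg4 (NG2), Cspg5 (neuroglycan C), Ptprz1 (a receptor phosphatase whose shed form is phosphacan), Tnr (tenascin-R) and Tnc (tenascin-C). The question was which cells held their transcripts, and whether their levels differed between injury groups. Cords came from female Wistar rats of 8 weeks, 7 days after surgery. A weight of 10 g was dropped on the exposed cord from 12.5 mm (mild), 25 mm (moderate) or 50 mm (severe), whereas sham animals had the laminectomy alone, a step that all groups shared. Each of the 4 groups had 2 libraries, and the labels do not say which animal gave which library, so the p-values below measure the spread between libraries, which may be technical.

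The 4 lecticans, Acan, Bcan, Ncan and Vcan, are secreted proteoglycans that bind hyaluronan at one end and tenascins at the other, and tenascin-R cross-links them in the perineuronal nets that surround many neurons. Their chondroitin sulfate chains act through receptors on the growth cone and stall axon growth, which is why the glial scar that forms around a contusion is regarded as a chemical barrier to regeneration. Cspg4, Cspg5 and Ptprz1 span the membrane, and NG2 protein is a classical surface marker of oligodendrocyte precursor cells (OPCs) and of pericytes.

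After quality control 55500 of 68658 cells were left, with median depths of 2696 to 10696 unique molecular identifiers (UMIs) per cell and library. Cells were placed in classes by marker genes, none of which was among the 9 genes. These class names were rebuilt here and may differ from those of the study. A gate cut from a marker score is a range and not a sharp type: of 2991 OPC-gated cells, 790 lay near the cut. Sham 1 stood apart with 4509 neutrophil-gated cells against 1 in sham 2, and cell barcodes shared by 2 or more libraries numbered 339 among the kept cells. Levels are given as CPM, the UMIs of a gene among the summed UMIs of a class in a library, scaled to a total of 1000000, for classes with at least 20 cells there. In such sums, fewer cells holding a transcript and fewer transcripts per cell cannot be told apart. The counts are of transcript ends, so levels were compared between cells and not between genes.

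All 9 genes were detected, with 191 kept UMIs for Acan, 531 for Cspg5, 670 for Bcan, 1591 for Ncan, 4045 for Tnr, 5142 for Cspg4, 29175 for Tnc, 32290 for Ptprz1 and 82654 for Vcan. OPC-gated cells made up 5.39% of the kept cells. They held 78.6% of all Ptprz1 UMIs (95% Wilson interval 78.1 to 79.0%), 76.2% of those of Tnr (74.9 to 77.5%), 68.9% of Cspg5, 61.3% of Ncan (58.9 to 63.6%) and 52.2% of Bcan (48.5 to 56.0%). These intervals cover counting error only, and the means of the library shares were 81.1 ± 9.43% for Ptprz1 and 77.6 ± 12.1% for Tnr (SD, n = 8). Pooled over the libraries, OPC-gated cells were thus the main holder of Ptprz1, Cspg5, Ncan, Bcan and tenascin-R. For Bcan this order did not hold in each library. Oligodendrocyte-gated cells held more of its UMIs in mild 1, severe 1 and severe 2. The counts there were 44, 10 and 72, against 23, 9 and 36 in OPC-gated cells. OPC-gated cells held more Bcan in both sham libraries, mild 2 and both moderate libraries.

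The other 4 genes were spread over more classes. Acan, the cartilage-type lectican, had 50.8% of its few UMIs in fibroblast-gated cells and 24.1% (18.6 to 30.6%) in OPC-gated cells. Moderate 1 gave 65 of the 97 fibroblast UMIs, and without it the shares were 31.4% in fibroblast-gated and 32.4% in OPC-gated cells, so that the order of these gates rested on that library. Vcan, a lectican of loose connective tissue as well as of the nervous system, had 42.9% of its UMIs in the macrophage/microglia gate and 31.2% in the OPC gate. The phagocyte share was the higher in 5 of 8 libraries, over ranges of 4.60 to 71.1% and 7.57 to 77.5%, and the pooled shares were 26.4 and 24.3% with a stricter gate. Cspg4 was held to 44.6% by OPC-gated cells (11.6 to 60.5% over the libraries) and to 37.6% by macrophage/microglia-gated cells (18.2 to 82.2%), the former being higher in 5 of 8 libraries. For neither gene did the order of these classes hold over the libraries. Tnc, the tenascin of wounds and developing tissue, was divided among OPC-gated cells (29.2%, 28.7 to 29.7%), fibroblast-gated cells (24.9%) and cells in no gate (34.3%). Its share in OPC-gated cells ranged from 5.09 to 44.7% over the libraries. Cells in no gate also held 26.5% of Ncan, 19.9% of Acan, 15.7% of Ptprz1, 15.1% of Tnr and 13.3% of Vcan. Of Bcan, Cspg4 and Cspg5 they held 7.91, 7.53 and 4.90%. Of the rest, oligodendrocyte-gated cells held 35.8% of Bcan, 9.42% of Cspg5 and 4.94% of Tnr. Macrophage/microglia-gated cells held 12.8% of Cspg5 and 3.14% of Ncan, and astrocyte-gated cells 3.02% of Ncan. Neuron-gated cells held 3.72% of Tnc and astrocyte-gated cells 2.20%.

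**Figure D1:**
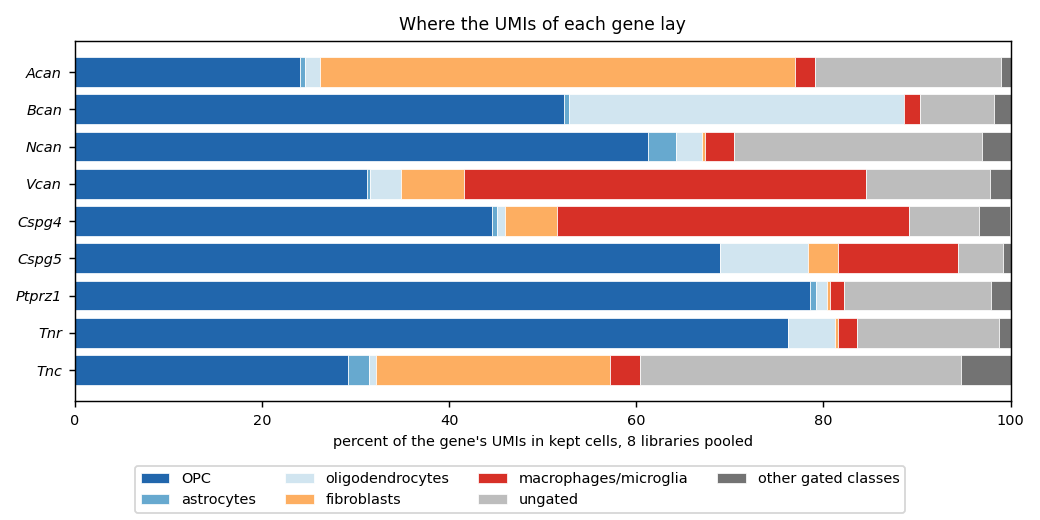
Stacked bars give, for each of the 9 genes, the percentage of its UMIs in kept cells that lay in each marker-gated class, pooled over the 8 libraries. Ptprz1 (78.6%) and Tnr (76.2%) lay mostly in OPC-gated cells, whereas Acan (50.8% in fibroblast-gated cells, 31.4% without moderate 1), Vcan (42.9% in macrophage/microglia-gated cells) and Tnc were spread more widely.

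A gene can hold many UMIs in a class because the class is large, so levels were also compared. Between OPC-gated and macrophage/microglia-gated sums, all 9 genes were higher in OPC-gated cells, where 34.2% of all genes tested were (edgeR quasi-likelihood test, Benjamini-Hochberg adjusted p under 0.05). The log2 differences ran from 1.69 (SE 0.49) for Vcan (adjusted p = 0.0029) to 9.08 for Ptprz1, with 7.90 for Tnr, 7.19 for Bcan, 6.80 for Ncan and 6.07 for Tnc. Vcan, Ptprz1, Tnr and Tnc were each higher in OPC-gated cells in 8 of 8 libraries. For Vcan this holds for the phagocyte gate as a whole. Its monocyte-derived-gated subset, described below, held more Vcan than OPC-gated cells in sham 1 (2081 against 1025 CPM) and severe 1 (488 against 440 CPM). In the mild and moderate libraries and severe 2 that subset held less. Scaling by library size alone instead of by trimmed means moved the median of all genes by 0.774 on the log2 scale in this comparison.

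Against oligodendrocyte-gated cells, the mature progeny of OPCs, 8 of the 9 genes were higher in OPC-gated cells (background 28.8%). Ptprz1 differed by 6.13, Cspg4 by 5.98, Tnc by 4.45, Ncan by 4.16, Tnr by 3.90, Cspg5 by 3.05 and Vcan by 2.92 on the log2 scale. Acan passed as well, with 2.93 (adjusted p = 0.0081), but from 3 UMIs in oligodendrocyte-gated cells, and it was lost without mild 2 (1.79, adjusted p = 0.12). Bcan alone did not pass (0.41, SE 0.46, adjusted p = 0.48). Its level in oligodendrocyte-gated cells was 0.368 and 9.66 CPM in sham, 5.15 and 5.42 in mild, 3.90 and 6.26 in moderate and 9.10 and 16.4 in severe libraries.

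Against fibroblast-gated cells, 7 of the 9 genes were higher in OPC-gated cells (background 26.8%), namely Ptprz1 (8.28), Ncan (7.15), Tnr (6.73), Cspg5 (3.86), Cspg4 (2.31), Vcan (1.59) and Bcan, which had 0 UMIs in fibroblast-gated cells and is given no fold. Tnc (−0.37, SE 0.37, adjusted p = 0.42) and Acan (−1.40, SE 0.64, adjusted p = 0.069) did not pass in either direction. Fibroblast-gated cells exceeded macrophage/microglia-gated cells for Tnc (6.44) and Acan (6.47) only, 2 of 9 genes against a background of 29.6%. Acan had 4 UMIs in macrophage/microglia-gated cells and was higher in fibroblast-gated cells in 5 of 7 libraries. Cspg4 (0.64, adjusted p = 0.099) was called in this contrast with scaling by library size (1.10, adjusted p = 0.0061). Both genes without a call between OPC-gated and fibroblast-gated cells turned on the gate. With the stricter gate Tnc (−1.26, adjusted p = 0.0038) and Acan (−1.69, adjusted p = 0.017) were called lower in OPC-gated cells. Acan was also called without mild 2 (−1.997, adjusted p = 0.012) or moderate 2 (−1.88, adjusted p = 0.015). For Tnc, both gates lay far above the phagocytes.

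**Figure D2:**
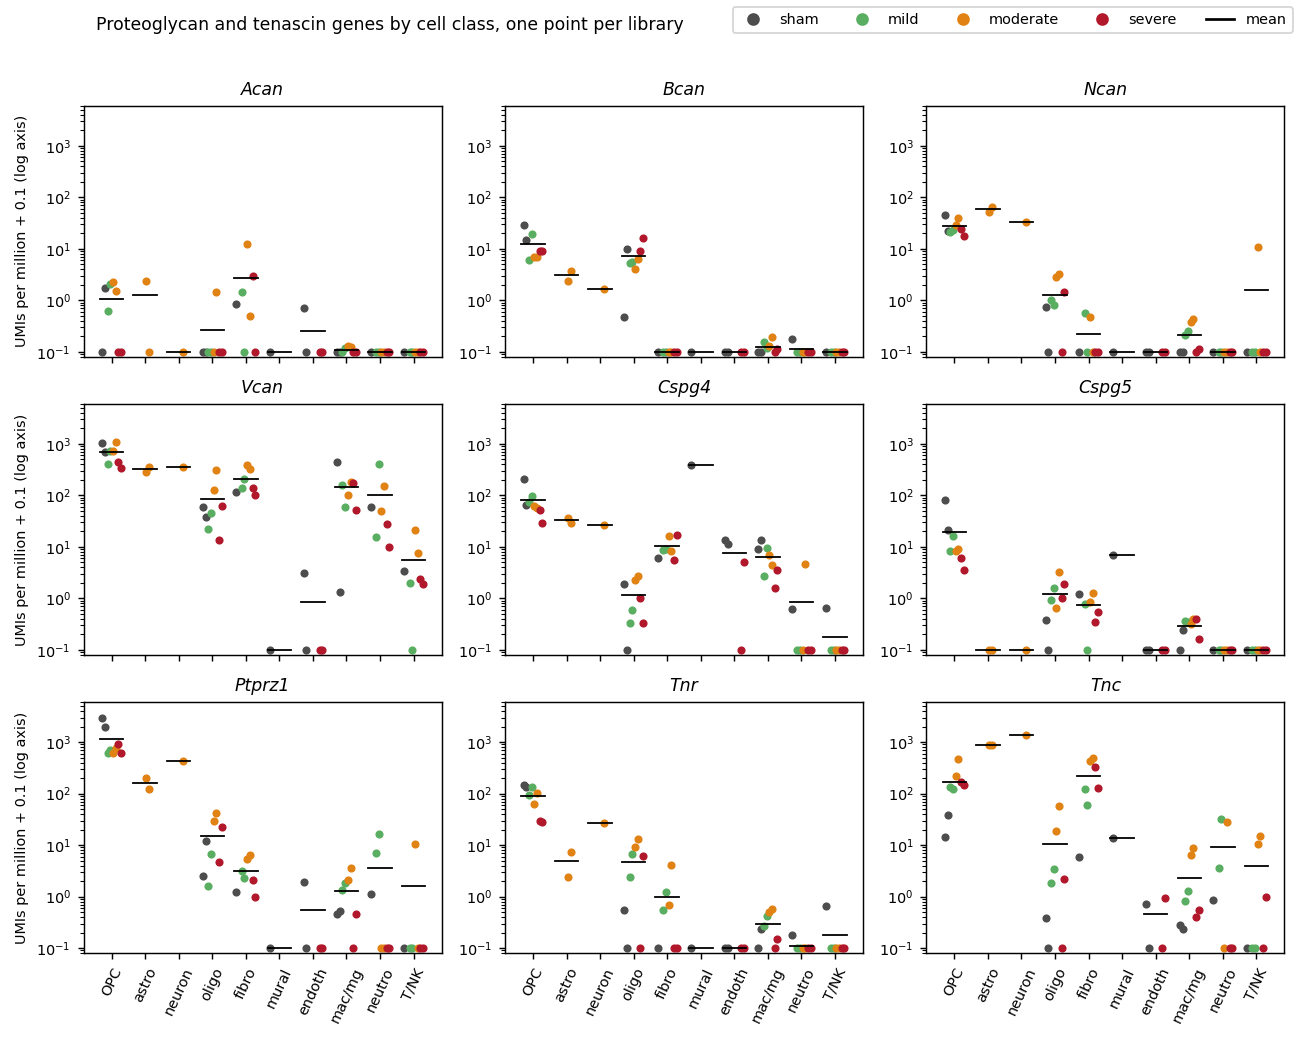
Each point is the summed level of a gene in a class of 1 library with at least 20 cells of it, as CPM + 0.1 on a log axis, coloured by injury group, with black lines at class means and a panel for each of the 9 genes. Ptprz1 and Tnr lay highest in OPC-gated cells, Ncan was at 52.7 and 65.5 CPM in astrocyte-gated cells, and Tnc had high points in the OPC, astrocyte and fibroblast gates and at 1403 CPM in the neuron gate of moderate 2.

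Astrocytes are the textbook source of scar proteoglycans, and 87 cells passed the astrocyte gate. Of these, 82.8% lay in cluster 24, a cluster of 250 cells led by Lgals1, Vim, Ifitm3, Tnfaip6 and Fabp7 that was left unnamed and held Tnc at 449 CPM, and 6941 kept cells were in no gate, so the gate does not count the astrocytes of these suspensions. Moderate 1 (37 cells) and moderate 2 (20 cells) were the libraries with at least 20. In those libraries their sums held Tnc at 874 and 862 CPM, Vcan at 291 and 353, Ptprz1 at 204 and 124, Ncan at 52.7 and 65.5 and Cspg4 at 36.6 and 29.1. The same sums held astrocyte markers at 6451 and 3707 CPM, mural markers at 1030 and 1531 CPM and neuron markers at 790 and 662 CPM. The OPC sums of these libraries held less Tnc (223 and 474 CPM) and less Ncan (28.4 and 40.2 CPM), but more Vcan, Ptprz1 and Cspg4. They held mural markers at 15.5 and 14.6 CPM and neuron markers at 188 and 295 CPM. The part of these other markers was not tested. Of the 9 genes, Ptprz1 (3.55 on the log2 scale, SE 0.97, adjusted p = 0.013) and Tnr (5.07, SE 1.15, adjusted p = 0.0031) were higher in OPC-gated than in astrocyte-gated cells (background 4.86%), and Tnc did not pass (−0.53, adjusted p = 0.66). Both calls were lost without moderate 1 (Ptprz1 4.64, adjusted p = 0.079, and Tnr 4.99, adjusted p = 0.077), and Ptprz1 also without moderate 2 (3.26, adjusted p = 0.16). With the stricter gate neither passed (Ptprz1 2.37, adjusted p = 0.30, and Tnr 5.23, adjusted p = 0.057), and Tnc was called lower in OPC-gated cells instead (−2.34, adjusted p = 0.035). Compared with fibroblast-gated cells, astrocyte-gated cells were higher for Ncan (7.47) and Ptprz1 (4.73), 2 of 9 genes against a background of 5.95%, and Ptprz1 was lost without moderate 1 (3.82, adjusted p = 0.086). Neuron-gated cells were as few (66), and 83.3% of them fell in the larger of the clusters of OPC-gated cells described below. In moderate 2, the only library with 20 of them (39 cells), Tnc stood at 1403 CPM, above every other class sum shown, with Ptprz1 at 433 and Vcan at 349 CPM. The labels of this gate and of its cells' cluster thus differ, and no neuronal level is read from it.

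NG2 also marks pericytes. Mural cells reached 20 cells only in sham 1 (39 cells), where Cspg4 stood at 387 CPM, above the 207 and 65.9 CPM of the sham OPC sums, and the difference of OPC-gated from mural cells did not pass (−1.53, SE 0.69, adjusted p = 0.19). In that contrast 2 of 9 genes, Vcan and Ptprz1, were higher in OPC-gated cells (background 3.27%). Of the 9 genes, 8 were higher in OPC-gated than in endothelial cells (background 24.3%), all but Acan (adjusted p = 0.88). Endothelial cells held little Cspg4, with 13.3 and 11.3 CPM in sham and 0 and 4.98 CPM in severe libraries, which did not pass (−1.75, SE 0.82, adjusted p = 0.40).

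To compare shares of cells, each cell was thinned to 1000 UMIs, which kept 2969 OPC-gated cells and left out 22. A UMI of Ptprz1 was then seen in 49.2% of them (95.1% unthinned), of Vcan in 47.3% (93.5%), of Tnc in 13.3% (43.0%), of Tnr in 10.6% (50.0%) and of Cspg4 in 7.81% (44.9%). Ncan (2.22%), Cspg5 (1.45%), Bcan (1.25%) and Acan (0.202%) were seen in few. As a measure of free RNA, erythrocyte-gated cells, which should lack all 9 genes, showed at most 0.089% for any of them (median 6542 UMIs, against 10235 in OPC-gated cells), and T/NK-gated cells 0.146% for Ptprz1 and Tnc and 0.584% for Vcan (median 3063 UMIs). Erythrocyte-gated cells numbered 130 in sham 1, 116 in severe 1 and 998 in severe 2, but 0 in both mild libraries and moderate 1. Moderate 2 had 5 and sham 2 had 1, so this measure does not cover mild or moderate injury. Each gene but Acan was seen in a larger share of OPC-gated cells than of erythrocyte-gated or T/NK-gated cells. Acan was seen in 0 of 1370 T/NK-gated cells, which allows a share of up to 0.219%, above its share in OPC-gated cells. Neutrophil-gated cells showed Vcan in 3.91% (median 2080 UMIs).

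Single OPC-gated cells often held several of the genes. At 1000 UMIs, 39.1% of them showed 1 of the 9 genes, 29.2% showed 2, 9.50% showed 3 and 1.72% showed 4, and 20.3% showed none. Vcan and Ptprz1 were found together in 26.1%, Vcan and Tnc in 6.67%, Vcan and Tnr in 5.89% and Ptprz1 and Tnr in 5.56% of the cells. In fibroblast-gated cells Vcan was seen in 15.2%, Tnc in 15.04% and both together in 4.50%.

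The starts of 4 of the genes are shown because the tenascin pair moved in opposite directions after injury, and because Vcan and Cspg4 were the genes that OPC-gated and myeloid cells shared. RefSeq promoters on assembly GRCr8, which is not the Rnor_6.0 build of the counts, were found for 7 of the 9 genes, and Cspg5 and Ptprz1 were not among them. The 250 bases before each annotated start are given 5′ to 3′ on the gene's strand, and capitals mark a TATA box (TATAAA), an AP-1 motif (TGANTCA), an E-box (CANNTG) or a SOX motif (ACAANG) on either strand, with no overlaps.
Tnc: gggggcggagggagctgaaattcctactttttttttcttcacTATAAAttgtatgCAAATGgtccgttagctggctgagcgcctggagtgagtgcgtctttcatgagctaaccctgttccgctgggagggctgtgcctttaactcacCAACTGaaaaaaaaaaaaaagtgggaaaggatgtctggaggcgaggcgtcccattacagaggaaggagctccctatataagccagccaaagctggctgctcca
Tnr: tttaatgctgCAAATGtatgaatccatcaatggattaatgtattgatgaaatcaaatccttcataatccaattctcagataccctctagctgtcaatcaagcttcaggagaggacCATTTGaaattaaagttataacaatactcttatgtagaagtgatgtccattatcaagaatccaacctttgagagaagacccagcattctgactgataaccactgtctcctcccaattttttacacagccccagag
Vcan: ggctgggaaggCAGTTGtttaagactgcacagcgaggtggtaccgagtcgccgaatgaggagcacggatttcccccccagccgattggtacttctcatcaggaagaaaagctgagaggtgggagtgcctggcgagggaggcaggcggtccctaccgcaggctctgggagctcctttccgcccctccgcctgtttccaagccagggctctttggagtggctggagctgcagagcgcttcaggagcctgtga
Cspg4: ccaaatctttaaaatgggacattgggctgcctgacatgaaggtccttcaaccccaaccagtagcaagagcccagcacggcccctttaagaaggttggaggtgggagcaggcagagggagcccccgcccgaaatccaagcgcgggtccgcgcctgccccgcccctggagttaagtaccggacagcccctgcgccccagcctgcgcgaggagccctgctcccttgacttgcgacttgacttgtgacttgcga
The Tnc window (chr5:82476132-82476381, minus strand, 49.6% GC) held a match to TATAAA whose first base lay 208 bases before the start, and E-boxes at 195 and 103 bases. A similar stretch nearer the start, tatataag, does not match these letters, so it is unmarked and was not counted. The Tnr window (chr13:74624776-74625025, plus strand, 36.8% GC) held E-boxes at 240 and 135 bases. The Vcan window, at the first of its annotated starts (chr2:22595956-22596205, minus strand, 61.6% GC), held an E-box at 239 bases, and the Cspg4 window (chr8:66160692-66160941, plus strand, 62.0% GC) held none of the motifs. Among 33469 windows of the same length, 12.9% held the TATA box, 6.3% the AP-1 motif, 65.5% an E-box and 36.9% the SOX motif, and the median GC content was 51.2%. A match is a match of letters and does not show that a factor was bound.

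Injury was followed first within OPC-gated cells, which numbered 64 and 69 in sham, 307 and 812 in mild, 681 and 779 in moderate and 62 and 217 in severe libraries. Of 9 OPC markers in the gene table, 8 had a UMI in every OPC sum and Neu4 was at 0 throughout. Their summed level was 4040 to 5955 CPM in sham and 1994 to 3790 CPM in injured libraries. Neutrophil markers summed to 7715 CPM in the OPC sum of sham 1 and to 0 in that of sham 2, against 2.01 to 264 CPM in injured libraries. Macrophage markers summed to 338 to 591 CPM in sham and 41.2 to 583 CPM in injured libraries. The part of these markers in the results was not tested, and values without sham 1 are given wherever a call was lost.

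Tenascin-C rose in OPC-gated cells after injury. Its level was 14.3 and 38.6 CPM in sham 1 and 2, 135 and 121 in mild, 223 and 474 in moderate and 170 and 147 in severe libraries. All 6 injured libraries lay above both sham libraries, and the moderate libraries were the highest. The increase was 7.34-fold (log2 2.88, SE 0.40, adjusted p = 0.0022), where 8.07% of 11284 genes were called and the median of all genes was 0.006. Group by group, Tnc was higher by 2.22 in mild (adjusted p = 0.018), 3.61 in moderate (adjusted p = 0.0017) and 2.80 in severe injury (adjusted p = 0.0050), all against the same sham pair.

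The gate bore on the size of this increase. The 790 OPC-gated cells near the cut held 57.3% of the 8523 Tnc UMIs of the gate, at 477 CPM against 154 CPM in the other 2201 cells, and numbered 6 and 7 in sham, 62 and 141 in mild, 222 and 219 in moderate and 25 and 108 in severe libraries. Away from the cut Tnc was at 15.1 and 37.3 CPM in sham, 77.5 and 79.0 in mild, 121 and 305 in moderate and 79.2 and 81.4 in severe libraries. All 6 injured libraries were still above both sham libraries. With the stricter gate injured against sham gave 2.05 (adjusted p = 0.020) and moderate 2.88 (adjusted p = 0.0091), whereas the calls in mild (1.49, adjusted p = 0.091) and severe injury (1.79, adjusted p = 0.059) were lost.

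The other tenascin fell. Tnr was at 147 and 135 CPM in sham, 93.1 and 134 in mild, 61.6 and 101 in moderate and 29.1 and 27.5 in severe libraries. Every injured library was below both sham libraries, by little in mild 2, and both severe libraries were the lowest of all. Tnr fell by 1.02 on the log2 scale in injured against sham (SE 0.24, adjusted p = 0.022, 2.03-fold lower). It passed against sham in severe injury (−1.99, SE 0.31, adjusted p = 0.0051) and not in mild or moderate injury, and severe against mild was tested directly (−1.72, SE 0.29, adjusted p = 0.0043, background 4.67%). The call against sham rested on few libraries: it was lost without sham 1 (−1.02, adjusted p = 0.10), sham 2 (−0.98, adjusted p = 0.059) or severe 2 (−0.996, adjusted p = 0.064), and with the stricter gate (−0.845, adjusted p = 0.068).

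Ptprz1, the most widely detected of the genes in OPC-gated cells, fell as well. It was at 2954 and 1996 CPM in sham, 619 and 708 in mild, 613 and 773 in moderate and 925 and 616 in severe libraries. The ranges were far apart, the highest injured library (severe 1) being below the lower sham library. The decrease was 3.20-fold (log2 −1.68, SE 0.23, adjusted p = 0.0022). It was −1.85 in mild (adjusted p = 0.011), −1.83 in moderate (adjusted p = 0.0060) and −1.36 in severe injury (adjusted p = 0.021).

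Cspg5, a transmembrane proteoglycan of neural cells, was at 83.2 and 20.9 CPM in sham, 8.18 and 16.1 in mild, 8.10 and 9.23 in moderate and 6.02 and 3.47 in severe libraries. The injured libraries were all lower, but the sham libraries differed from each other, and the upper of the 2 was the library with the neutrophil markers. Cspg5 fell by 2.53 on the log2 scale (SE 0.45, adjusted p = 0.0064), which was not called without sham 1 (−1.38, adjusted p = 0.21).

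Cspg4, Bcan, Ncan and Vcan did not pass in injured against sham OPC-gated cells, and Acan, with 46 UMIs in all, was too low to be tested. Cspg4 stood at 207 and 65.9 CPM in sham, 74.2 and 99.3 in mild, 61.8 and 56.7 in moderate and 53.2 and 29.0 in severe libraries (−1.04, SE 0.33, adjusted p = 0.070). Sham 1 was high, and sham 2 lay among the injured libraries. The result lay close to the threshold: Cspg4 was called lower by DESeq2 (−1.09, adjusted p = 0.045), with no low-count filter (−0.94, adjusted p = 0.0086) and without sham 2 (−1.60, adjusted p = 0.0040). In the clusters described below the sign of Cspg4 differed: it was −1.32 in cluster 12 and 1.29 in cluster 23, where sham stood on 1 library. Vcan was at 1025 and 704 CPM in sham, 413 and 722 in mild, 743 and 1111 in moderate and 440 and 341 in severe libraries (−0.42, SE 0.26, adjusted p = 0.33). The groups overlapped, as they did for Ncan (17.6 to 40.2 CPM in injured against 22.5 and 45.2 in sham, −0.26, SE 0.32, adjusted p = 0.64) and Bcan (5.88 to 19.6 against 14.5 and 28.5, −1.004, SE 0.53, adjusted p = 0.25).

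By group, 3 of the 8 genes tested were called in mild (background 5.3%), 3 in moderate (7.05%) and 4 in severe injury (8.1%): Tnc, Ptprz1 and Cspg5 in each, with Tnr in severe injury. Cspg4 in severe injury just missed the edgeR threshold (−1.42, adjusted p = 0.054). It was called lower by DESeq2 (−1.43, adjusted p = 0.026), with scaling by library size (−1.77, adjusted p = 0.036) and with only the groups compared (−1.60, adjusted p = 0.037). In the clusters described below it was −2.50 in cluster 12 and 0.91 in cluster 23. With 2 libraries a side the calls made were easily lost. Without severe 2 no gene passed in severe injury (Tnc 2.87, adjusted p = 0.079, Ptprz1 −1.12, adjusted p = 0.23, Cspg5 −2.71, adjusted p = 0.21, and Tnr −1.99, adjusted p = 0.12), and without sham 1 Cspg5 (−2.07, adjusted p = 0.12) and Ptprz1 (−1.15, adjusted p = 0.060) did not. In mild injury, Tnc was lost without sham 1 (1.70, adjusted p = 0.070), and Tnc (2.11, adjusted p = 0.094) and Ptprz1 (−1.79, adjusted p = 0.11) without mild 1. Cspg5 in mild injury (−1.92, adjusted p = 0.042) was lost without sham 1 (−0.77, adjusted p = 0.48), mild 1 (−1.59, adjusted p = 0.22), severe 1 or severe 2 (−1.87 and adjusted p = 0.064 in both). In moderate injury, Cspg5 was lost without sham 1 (−1.30, adjusted p = 0.21).

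**Figure D3:**
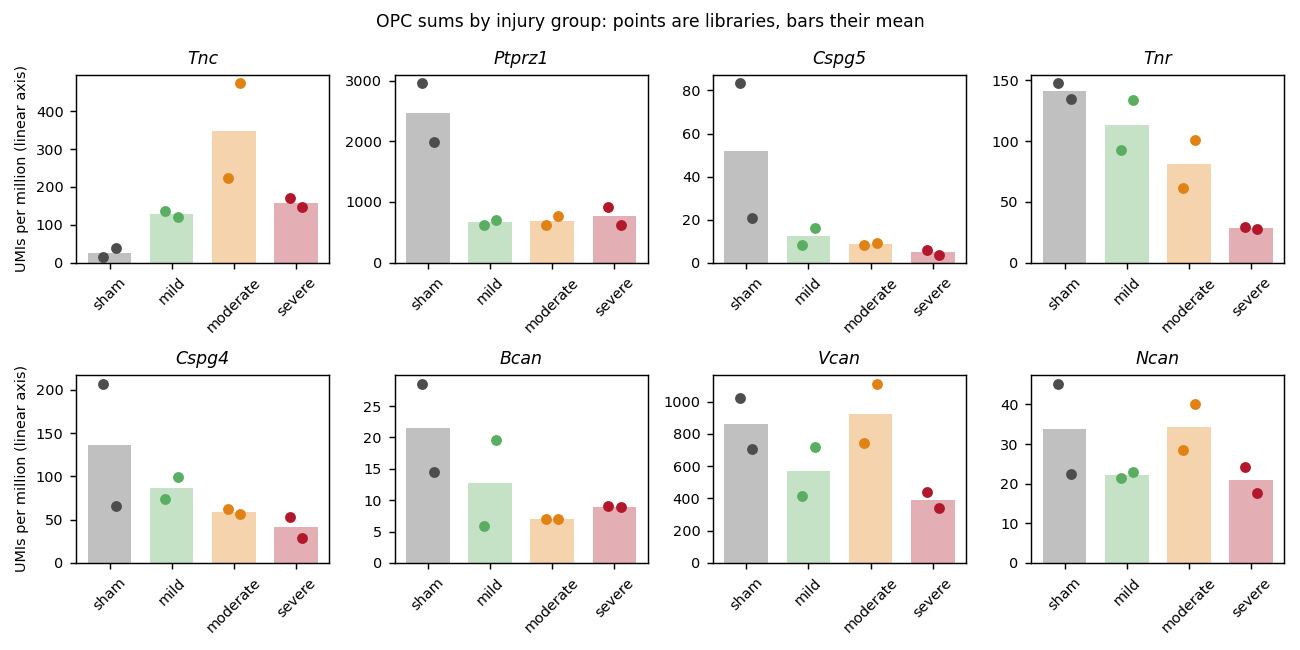
Each point is the summed level of a gene in the OPC-gated cells of 1 library, in CPM on a linear axis from 0, by injury group, and bars are the means of the 2 libraries. Tnc was higher in all 6 injured libraries than in both sham libraries, Ptprz1, Tnr and Cspg5 were lower in all 6, and both severe libraries were lowest for Tnr. The share of all genes with such a separation was not counted.

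Most OPC-gated cells fell in 2 clusters, which were formed without the 9 genes. Cluster 12 (954 cells, 89.2% of them OPC-gated, median 6498 UMIs) was led by Tuba1a, Cd9, Cnp and Olig1, and cluster 23 (3107 cells, 66.5% OPC-gated, median 12536 UMIs) by Il33, Tuba1a, Ptn and Ccnd1, with no marker of the OPC list among its 10 leading genes. Cluster 23 held 12.5 and 37.7% of the OPC-gated cells in sham, 67.8 and 52.2% in mild, 79.2 and 83.1% in moderate and 69.4 and 79.3% in severe libraries. Most OPC-gated cells of sham libraries therefore lay in cluster 12 and most of those of injured libraries in cluster 23, and the changes above were recomputed over all cells of each cluster, a step added after the data had been seen. Libraries with under 20 cells of a cluster stayed out of its tests: severe 1 (11 cells) in cluster 12 and sham 1 (12 cells) in cluster 23, so that sham stood on 1 library of 35 cells there.

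Ptprz1 was called lower in each cluster, in cluster 23 against the single sham library, whose spread was taken to be like that of the injured groups. In cluster 12 it was at 3089 and 2278 CPM in sham, 953 and 886 in mild, 923 and 959 in moderate and 1158 and 752 in severe libraries (−1.60, SE 0.24, adjusted p = 0.019). In cluster 23 it was at 1392 and 1564 in sham, 456 and 485 in mild, 477 and 625 in moderate and 774 and 511 in severe libraries (−1.41, SE 0.23, adjusted p = 0.010). All injured libraries with at least 20 cells lay below both sham libraries in each cluster. Cspg5 was called in cluster 12 as well (adjusted p = 0.029), with 94.3 and 32.6 CPM in sham and 0 to 22.4 CPM in injured libraries, so that 2 of 8 genes were called there (background 1.47%) and 1 of 9 in cluster 23 (0.591%). In moderate against sham and in severe against mild none of the 8 genes was called by edgeR in cluster 12. Of all genes 0.0911 and 0.205% were called there, so the lack of a call does not show a lack of change.

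The tenascins lay at different levels in the clusters, which is a description and not a test. Tnc was at 8.32 and 8.89 CPM in sham, 12.8 and 5.50 in mild, 17.3 and 18.5 in moderate and 19.3 and 5.07 in severe libraries in cluster 12, where it did not pass (0.10, adjusted p = 0.97). In cluster 23 it was at 84.6 and 136 in sham, 194 and 251 in mild, 404 and 759 in moderate and 261 and 230 in severe libraries, all 6 injured libraries being above both sham libraries. Injured against sham missed the threshold there (1.32, SE 0.35, adjusted p = 0.10), and moderate against sham passed (2.06, SE 0.39, adjusted p = 0.017), with 2 of 9 genes called (background 1.2%). The 7.34-fold increase over all OPC-gated cells thus went together with a larger share of cluster 23, and within cluster 12 the groups overlapped.

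Tnr was higher in cluster 12. It was at 169 and 187 CPM in sham, 258 and 298 in mild, 237 and 334 in moderate and 90.1 and 142 in severe libraries there, the mild and moderate libraries being above sham and the severe libraries below (injured against sham 0.36, adjusted p = 0.45). In cluster 23 it was at 61.5 and 69.3 in sham, 59.3 and 57.9 in mild, 39.0 and 60.04 in moderate and 16.1 and 20.3 in severe libraries (−0.75, adjusted p = 0.38). The overall decrease of Tnr in injured against sham was thus not called within either cluster and had the opposite sign in cluster 12. Severe against mild was called in cluster 23 (−1.32, SE 0.26, adjusted p = 0.0046, background 10.3%).

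**Figure D4:**
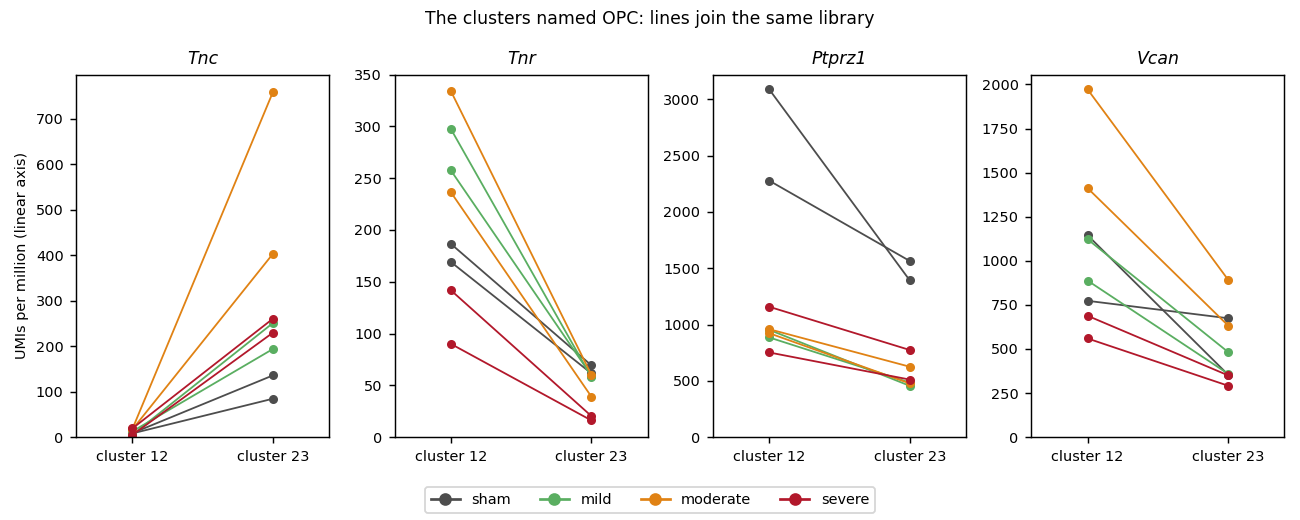
Points give the level of Tnc, Tnr, Ptprz1 and Vcan in all cells of cluster 12 and of cluster 23, in CPM on linear axes from 0, coloured by injury group, and lines join the same library. Ptprz1 was lower in all injured libraries in both clusters, Tnc lay at 5.07 to 19.3 CPM in cluster 12 and at 84.6 to 759 CPM in cluster 23, and Tnr was lowest in the severe libraries.

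The stage of OPC-gated cells also went with these genes. In the 6 injured libraries, 1287 cycling cells were lower than 1571 other OPC-gated cells for 6 of the 8 genes tested (background 21.9%): Tnr by −1.29 (SE 0.09), Bcan −1.18 (SE 0.21), Vcan −0.99 (SE 0.07), Cspg5 −0.54 (SE 0.18), Cspg4 −0.44 (SE 0.08) and Ptprz1 −0.27 (SE 0.06) on the log2 scale. Tnc (−0.09, adjusted p = 0.42) and Ncan (−0.21, adjusted p = 0.19) did not pass, and Cspg5 was lost without moderate 1 (−0.46, adjusted p = 0.078). Ncan was called with the stricter gate (−0.50, adjusted p = 0.020) and Tnc without mild 2 (−0.19, adjusted p = 0.037). In 6 libraries, without sham 2 and severe 1, 649 OPC-gated cells with markers of commitment to the oligodendrocyte lineage were compared with 2211 others. Tnr was higher in them (1.23, SE 0.10, adjusted p = 1.7e-08) and Vcan too (0.57, SE 0.06), whereas Tnc was lower (−1.08, SE 0.09, adjusted p = 1.1e-08), as was Ncan (−0.43, SE 0.13, adjusted p = 0.028), 4 of 8 genes against a background of 14.0%. The call for Ncan was lost without mild 2 (−0.34, adjusted p = 0.18), moderate 1 (−0.46, adjusted p = 0.053) or severe 2 (−0.40, adjusted p = 0.061). In mild 1, for example, Tnc was at 77.7 CPM in committed and 160 CPM in the other OPC-gated cells, and Tnr at 144 against 71.2 CPM.

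Fibroblast-gated cells, which line the meninges and vessels and form the core of the scar, held Tnc at 5.66 CPM in sham 1, 123 and 59.5 in mild, 425 and 494 in moderate and 333 and 131 in severe libraries. Sham 2 had 2 such cells and could not be used, so sham was represented by 1 library, which carried neutrophil markers at 3756 CPM (16.6 to 188 in injured libraries), and whose part was not tested. All 6 injured libraries were above sham 1. A single sham library gives no spread of its own, so the tests in fibroblast-gated cells take it to vary like the injured groups. Tnc was called (5.15, SE 0.80, adjusted p = 0.026), 1 of the 6 genes tested (background 2.77%), and this was lost without moderate 1 (5.16, adjusted p = 0.060) or moderate 2 (5.13, adjusted p = 0.060) and with classes from clusters (3.01, adjusted p = 0.065). Moderate against sham alone gave 6.06 (SE 0.85, adjusted p = 0.024, background 2.43%), lost without moderate 1 (6.12, adjusted p = 0.087) or moderate 2 (5.99, adjusted p = 0.11).

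In the same cells Vcan was at 119 CPM in sham 1, 140 and 209 in mild, 394 and 331 in moderate and 141 and 103 in severe libraries (0.63, adjusted p = 0.30). The moderate libraries were the highest and the severe libraries lay close to sham 1. Acan, not tested, was found mostly in moderate 1 (12.5 CPM from 65 UMIs) and severe 1 (2.93 CPM from 23 UMIs), with 0 to 1.38 CPM elsewhere.

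Macrophages and microglia held Vcan at 440 and 1.22 CPM in sham 1 and 2, 163 and 58.6 in mild, 102 and 183 in moderate and 174 and 51.5 in severe libraries. The sham libraries were the highest and the lowest of all, and injury made no called difference (−0.55, SE 1.27, adjusted p = 0.80). This rested on the pair of sham libraries: without sham 1 Vcan was called higher after injury (6.70, adjusted p = 0.0072), and without sham 2 it was −1.47. Cspg4 did not pass either (−1.19, SE 0.52, adjusted p = 0.17). Tnc was called (3.35, SE 0.56, adjusted p = 0.017), 1 of the 7 genes tested (background 10.6%), but its levels were low: 0.175 and 0.14 CPM in sham and 0.306 to 8.70 CPM in injured libraries, with the moderate libraries highest. T/NK-gated cells of the same moderate libraries showed 10.6 and 15.04 CPM of Tnc (4 and 2 UMIs), so that free RNA and expression cannot be told apart at these levels. The call was lost without sham 2 (3.40, adjusted p = 0.055) or moderate 2 (3.28, adjusted p = 0.051).

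Within the phagocyte gate 2 subsets differed. Of its 28583 cells, 8385 were microglia-gated and 5381 monocyte-derived-gated, and the rest were in neither subset. The monocyte-derived list had 6 of its 8 markers in the gene table, without Ccr2 and Plac8, so the name is that of a gate. In 7 libraries with at least 20 cells of each, all but sham 2, 5366 monocyte-derived-gated cells were compared with 6594 microglia-gated cells. Vcan was at 2081 CPM in monocyte-derived-gated cells of sham 1, 397 and 323 in mild, 408 and 481 in moderate and 488 and 177 in severe libraries, against 0.755 to 10.0 CPM in microglia-gated cells of the same libraries. It was higher in 7 of 7 (7.06, SE 0.41, adjusted p = 1.5e-07). Cspg4 went the other way, with 0.351 to 2.43 CPM in monocyte-derived-gated and 5.99 to 18.0 CPM in microglia-gated cells (−3.11, SE 0.21, adjusted p = 4.2e-07). These were 2 of the 3 genes tested, where 53.3% of all genes were called, and Ptprz1 did not pass (−0.26, adjusted p = 0.46).

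**Figure D5:**
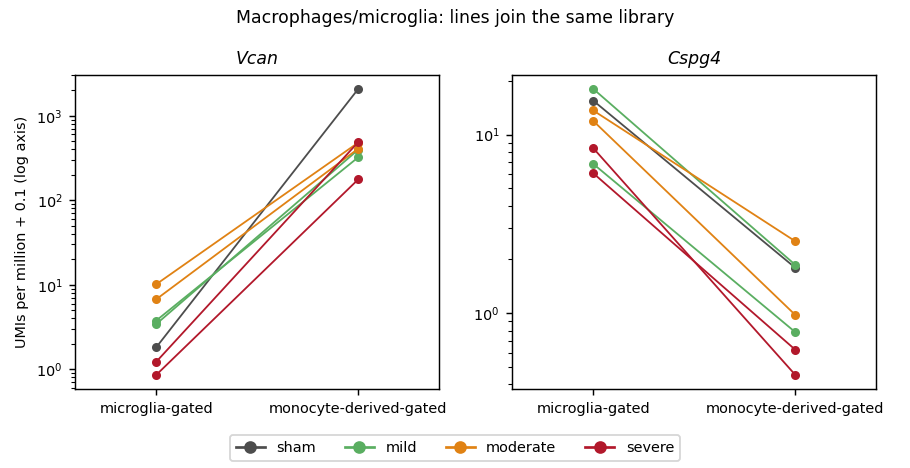
Points give the level of Vcan and Cspg4 in microglia-gated and in monocyte-derived-gated cells, as CPM + 0.1 on a log axis, coloured by injury group, with lines joining the same library. Vcan was 177 to 2081 CPM in monocyte-derived-gated and 0.755 to 10.0 CPM in microglia-gated cells, and Cspg4 was higher in microglia-gated cells in all 7 libraries.

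In oligodendrocyte-gated cells Tnc was at 0.276 and 0 CPM in sham, 1.76 and 3.38 in mild, 18.4 and 57.7 in moderate and 0 and 2.05 in severe libraries. In the moderate libraries T/NK-gated cells showed 10.6 and 15.04 CPM of Tnc and neutrophil-gated cells 0 and 27.7 CPM. The part of free RNA was not tested. In the oligodendrocyte-gated sums the groups overlapped, and Tnc was well above the others in the moderate libraries alone. It was called (4.27, SE 0.96, adjusted p = 0.036), 1 of the 5 genes tested (background 4.46%), and was lost without sham 1, which left sham at 0 CPM (adjusted p = 0.56), mild 2 (4.05, adjusted p = 0.060) or severe 2 (2.15, adjusted p = 1.0). Tnr (3.73, adjusted p = 0.051) and Bcan (2.99, adjusted p = 0.084) did not pass, but both did without sham 2 (Tnr 3.71, adjusted p = 0.030, and Bcan 4.27, adjusted p = 0.0021) or severe 1 (Tnr 3.96, adjusted p = 0.0099, and Bcan 3.16, adjusted p = 0.048).

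Of the 42 genes listed for link proteins, hyaluronan, chondroitin sulfate synthesis and sulfation, receptors and cleaving enzymes, 33 could be tested in injured against sham OPC-gated cells and 4 were called, beside 8.07% of all genes. Xylt1, which starts the glycosaminoglycan chain, fell (−2.31, SE 0.59, adjusted p = 0.032), as did the sulfotransferase Chst7 (−1.34, SE 0.30, adjusted p = 0.020) and Cntn1 (−1.14, SE 0.30, adjusted p = 0.035), a neural adhesion protein that binds Ptprz1 and tenascin-R. Hmmr, a hyaluronan receptor that is also a gene of dividing cells, rose (1.13, SE 0.24, adjusted p = 0.016). In moderate injury the lectican-cleaving Adamts1 (2.16) and Adamts9 (2.04) rose and Chst7 fell (−1.64), 3 of 33 against a background of 7.05%.

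Between classes the list divided in the same sums. Against macrophage/microglia-gated cells, 24 of 40 tested genes were higher and 8 lower in OPC-gated cells (34.2 and 34.6% of all genes), led by Chst7 (8.25), Cntn1 (7.57), the lectican protease Adamts5 (7.04), Has2 (6.89), a hyaluronan synthase, and Csgalnact1 (6.85), and the lower ones by Dse (−3.41), Chst12 (−3.15), Xylt2 (−2.11), Rtn4rl1 (−1.70) and Chsy1 (−1.45). Against fibroblast-gated cells, where 26.8% of all genes were higher and 26.2% lower, 12 were higher, led by Cntn1 and the link protein Hapln4, both near 0 in fibroblast-gated cells, and 18 lower, led by the small proteoglycan Dcn (−10.67), Adamts15, near 0 in OPC-gated cells, and the hyaluronan synthase Has1 (−5.98). Against oligodendrocyte-gated cells 24 were higher and 4 lower (28.8 and 28.1% of all genes), namely Hapln2 (−8.61), Adamts4 (−3.17), Dcn (−1.36) and B3gat3 (−0.95). Among injured against sham results in the other classes, the list gave lower Dsel (−2.73, adjusted p = 0.028) in macrophages and microglia (1 of 31, background 10.6%). In oligodendrocyte-gated cells the list gave lower Dcn (−3.49, adjusted p = 0.016) and higher B3gat3 (1.15, adjusted p = 0.037), 2 of 23 against a background of 4.46%. A cluster of 31 cells led by Dcn, 77.4% of them oligodendrocyte-gated, came to 100% from sham 1. Fibroblast markers in the oligodendrocyte sums were at 9.66 to 23.2 CPM in sham and 11.8 to 102 CPM in injured libraries. The part of these cells in the Dcn result was not tested. In fibroblast-gated cells Hapln2 (−2.83) and Dcn (−2.38) were lower than in the single sham library. Oligodendrocyte markers in these fibroblast sums were at 649 CPM in sham 1 and 138 to 388 CPM in injured libraries, and their part was not tested.

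Over the 67 sums of a class in a library, the genes whose log2(CPM + 1) was most like that of each member were listed as a description, since the sums share libraries. Tnc went with Igsf10 (Pearson r 0.886), Has2 (0.874) and Dok5 (0.873), whereas Tnr went with Inava (0.931), Dab1 and Vxn (0.925 each). Ptprz1 was most like Stk32a and Stmn3 (0.915 each) and C1ql1 (0.912), and Ncan most like Megf11 (0.944) and Stk32a (0.939) and Srrm3 (0.938). Cspg5 went with Syp (0.915), Ina (0.909) and Pcdh15 (0.908), Bcan with Gdap1l1 and Jakmip2 (0.905 each) and AABR07052730.2 (0.897), and Cspg4 with Lgalsl (0.879), Dagla (0.862) and Arhgef40 (0.848). The likeness was weakest for Vcan, with B4galt6 (0.782), Kif22 (0.757) and Gys1 (0.756), and for Acan, with Tnn (0.752), Prss46 (0.750) and Snai2 (0.724).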

How the data were processed

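Spinal cord cells were profiled with 10x single-cell RNA-seq. The authors aligned the reads to Rnor_6.0 with Cell Ranger (matrix header 5.0.1) and deposited filtered UMI counts per gene and cell, not normalized. Total UMIs were 31482153 to 131045446 per library. Cells with over 10% mitochondrial UMIs, the 7.7% with the highest simulated-doublet score in each library, and cells beyond 2 SD of UMIs or genes were removed. Cells were gated by the highest mean marker score (minimum 0.2, margin 0.05), which left 6941 cells (12.5%) ungated. A monocyte list was dropped because several of its markers were not in the gene table, and the dendritic, B, Schwann and ependymal gates are not described. Clusters were formed without the 9 genes (4000 variable genes, 15 components, 20 neighbours, Leiden resolution 1.0). A subset needed 3 distinct markers with a UMI.

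Counts were summed per class and library (at least 20 cells), and tested with edgeR 4.0.16 (quasi-likelihood, TMM, R 4.3.3) over all genes that passed its low-count filter, with Benjamini-Hochberg adjustment and the library as a block between classes. The test was tried on simulated data. Alternatives were DESeq2 1.42.0, scaling by library size, no low-count filter, at least 50 cells, a stricter gate (0.3, 0.1), cluster classes, 20% mitochondrial UMIs, no doublet removal, only the groups compared, a replicate block and leaving out each library. Beside the 9 genes, up to 5 genes of the 42-gene list with the largest called change in each direction and the 3 genes most like each member were named. The members and lists were chosen with earlier results of these data known. Python 3.11.15, scipy 1.17.1, scikit-learn 1.9.0 and igraph 0.11.9 were used.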

Additional observations from a re-analysis of the deposited data

Results flagged for a closer look

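The level of Tnr in OPC-gated cells differed between injury groups that share a sham baseline: severe against mild injury, tested directly, gave a log2 difference of −1.72 (edgeR adjusted p = 0.0043), with both severe libraries (29.1 and 27.5 CPM) below both mild libraries (93.1 and 134 CPM). It was not called without mild 2 (−1.45, adjusted p = 0.072) or without severe 2 (−1.75, adjusted p = 0.081).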

How the results depend on the processing

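Counts of called members in OPC-gated cells moved with leave-one-out and within clusters (edgeR). Only refits with a large move of a count are listed here, and smaller moves, up or down, are left out. Injured against sham (4) became 2 without sham 1, mild (3) 0 to 1, severe (4) 0 to 2 and severe against mild (1) 0. Within cluster 12 the counts were 2, 0, 0, 0 and 0 for injured, mild, moderate, severe and severe against mild, and within cluster 23 they were 1 for injured, 1 for mild and 0 for severe. The sign turned in cluster 12 for Tnr in injured against sham (0.36), Tnc in mild (−0.12) and Tnc in severe (−0.62). That of Cspg4 in injured against sham, not called in the main fit, turned in cluster 23 (1.29). For Vcan in macrophages and microglia, injured against sham ranged from −1.47 without sham 2 to 6.70 without sham 1. Fitting only the groups compared gave 0 and the stricter gate 1 in mild. No low-count filter gave 5 in moderate and 2 in severe against mild, and no doublet removal gave 5 in moderate. In fibroblast-gated cells the call for Tnc (1) went to 0 with cluster classes and under leave-one-out, and moderate against sham (1) gave 2 by DESeq2, 3 without the filter, 2 without doublet removal and 0 under leave-one-out. In oligodendrocyte-gated cells (1) the counts were 2 by DESeq2, 4 without the filter, 3 with at least 50 cells, 0 without doublet removal, 2 at 20% mitochondrial UMIs, 0 with cluster classes and 0 to 3 under leave-one-out. In macrophages and microglia (1) they were 2 without the filter and 0 to 2 under leave-one-out. OPC against astrocytes (2) gave 1 with the stricter gate, a different gene (Tnc, lower), and fell to 0 to 1 under leave-one-out. Cspg5 was gained there, as higher in OPC-gated cells, by DESeq2 (adjusted p = 0.049) and without sham 1 (adjusted p = 0.029). Astrocytes against fibroblasts (2) fell to 1 under leave-one-out. Bcan was gained there, as higher in astrocyte-gated cells, by DESeq2 (adjusted p = 0.0068) and without sham 1 (adjusted p = 0.039). The causes were not tested. Mean shares of UMIs in OPC-gated cells became 44.4% for Ncan and 66.7% for Ptprz1 with the stricter gate, that of Tnc went from 27.0 to 14.1%, and that of Vcan in macrophages and microglia from 41.0 to 22.3%. With clusters they were 84.5% for Ncan, 95.2% for Ptprz1, 95.7% for Tnr and 57.2% for Tnc, and Acan was 52.8%. Thinned to 500 UMIs, Vcan was seen in 25.6%, Ptprz1 in 37.4% and Tnr in 4.75% of OPC-gated cells.

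Deviations of same-numbered libraries from their group means correlated at −0.135 to −0.016 in OPC-gated cells, −0.230 to 0.232 in macrophages and microglia and −0.128 to 0.129 in oligodendrocyte-gated cells. Of 6 pairs of groups, 0, 2 and 1 were above 0.1 in these classes. With 2 libraries a group this check cannot exclude a shared batch, and the main fits used no pairing by number. With a replicate block, 4 members were still called in injured against sham OPC-gated cells (Tnc 2.93, Ptprz1 −1.67, Cspg5 −2.49, Tnr −1.04), and 716 of all genes instead of 911. In mild injury Cspg5 was not called under the block (−1.88, adjusted p = 0.056). Scaling by library size shifted the median of all genes by −0.333 in severe and −0.12 in injured against sham OPC-gated cells, and by −0.303 in severe against mild. With 2 libraries a group, and 62 to 69 OPC-gated cells in the smallest sums, differences in the low genes Acan, Bcan and Cspg5 were at the limit of the depth.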
